A study of Mus musculus with 4 samples.

Results

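A set of 37 genes of DNA replication and of the passage from G1 into S phase was followed in transformed mouse blood progenitors. The genes were taken by symbol from a fixed list of replication licensing, nucleotide supply and S-phase genes, and all 37 were found among the 55426 genes of the deposited tables. Poly(A)-selected RNA was sequenced from 4 libraries of transformed haematopoietic stem and progenitor cells that came from lineage- mouse bone marrow. In the MLL-ENL ∆YEATS libraries (n = 2) the cells carried a fusion of MLL with ENL residues 372 to 559. That stretch lacks the YEATS domain, the part of ENL that reads acylated lysines on histones, and also the rest of ENL before residue 372. In the MLL-ENL libraries (n = 2) the cells carried the MLL-ENL fusion, for which no source used here gives the ENL residues. Both kinds of cells were kept in the same medium with 15% serum, and the same poly(A) selection and library kits are given for all 4 libraries. The replicates are called technical in the series' text. Each group is therefore taken to be 1 line, p-values cover only the spread within a line, and an effect of the fusion and a difference between lines cannot be told apart.

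Before a cell copies its DNA, the origin recognition complex, Cdc6 and Cdt1 load the ring-shaped Mcm2 to Mcm7 helicase onto origins in G1, a step called licensing. Cyclin E and its kinase then help to fire the origins: Cdc45 and the GINS complex join the helicase, and the polymerases, the clamp PCNA and its loaders build the fork while ribonucleotide reductase supplies deoxynucleotides. Many of these genes are targets of E2F transcription factors, which RB holds back until G1 ends, so their transcripts are widely used as a measure of how much of a culture is cycling. Blood progenitors transformed by MLL fusions grow continuously in culture.

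The E2F sites for which such genes are known were looked for in the 250 bases upstream of each gene's start in RefSeq's promoter table (build GRCm38.p6), which held 29 of the 37 genes. The E2F motif was spelled as TTTCCCGC, TTTCGCGC, TTTGCCGC or TTTGGCGC, or the reverse complements GCGGGAAA, GCGCGAAA, GCGGCAAA and GCGCCAAA, and these spellings can overlap one another on opposite strands. The motif stood upstream of 7 of the 29 genes (24.1%), namely Cdc6, Mcm5, Mcm6, Mcm7, Pola1, Dtl and Hells, against 2.16% of all 27025 genes in the promoter table and 4.03% of its 9544 genes that were tested below. Windows of 5 of them are shown, and those of Mcm7 and Hells are left out because they lie in annotated exons (below). The capitals mark the E2F motif.
Mcm6, chr1:128359727-128359833, minus strand: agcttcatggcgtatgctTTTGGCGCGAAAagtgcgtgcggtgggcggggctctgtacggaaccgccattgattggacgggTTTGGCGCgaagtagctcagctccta
Mcm5, chr8:75109338-75109385, plus strand: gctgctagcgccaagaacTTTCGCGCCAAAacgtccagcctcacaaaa
Cdc6, chr11:98907995-98908038, plus strand: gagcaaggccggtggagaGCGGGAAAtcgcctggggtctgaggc
Pola1, chrX:93632268-93632311, minus strand: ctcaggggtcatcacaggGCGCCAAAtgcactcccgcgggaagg
Dtl, chr1:191575545-191575570, minus strand: cagaaagcgtgacgtcagTTTGGCGC
The Mcm6 window holds 3 matches, of which the first 2 overlap, and the Mcm5 window holds 2 overlapping matches. In the GENCODE M21 annotation the Cdc6 window lies in an intron of Cdc6, upstream of the RefSeq start, and the other 4 windows shown lie between genes. The Mcm7 window lies in exons of Ap4m1 and Mcm7, and the Hells window in an exon of Hells. By that annotation the matches of Mcm7 and Hells lie in transcribed sequence, upstream only of the RefSeq start.

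CCAAT, the motif of the factor NF-Y, or its reverse complement ATTGG stood upstream of 18 of the 29 genes (62.1%), against 37.5% of all genes in the promoter table and 41.1% of the tested ones. These upstream stretches were also richer in G and C, with a median of 62.4%, against 52.4% over all genes and 59.6% over the tested genes. Rrm2, which encodes the small, S-phase-regulated subunit of ribonucleotide reductase, is shown because it differed most between the groups (below). It held none of the E2F spellings in these 250 bases, which says only that those letters are not in this window. The capitals mark its single CCAAT, 50 to 46 bases upstream of the start.
Rrm2, chr12:24708104-24708240, plus strand: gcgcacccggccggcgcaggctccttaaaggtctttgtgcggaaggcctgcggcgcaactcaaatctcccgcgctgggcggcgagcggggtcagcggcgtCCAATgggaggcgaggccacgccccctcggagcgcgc

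The libraries held 28814798 and 28177480 expected counts (MLL-ENL ∆YEATS) and 28121268 and 27812855 expected counts (MLL-ENL). The MLL-ENL pair stood further apart than the MLL-ENL ∆YEATS pair: the SD of the log2 ratio within a pair, over all 13245 genes tested, was 0.29 in the MLL-ENL ∆YEATS pair and 0.47 in the MLL-ENL pair. In the MLL-ENL pair the ratio of replicate 1 to replicate 2 also fell with transcript length (Spearman's rho = -0.49 across the tested genes, against 0.09 in the MLL-ENL ∆YEATS pair, as descriptions across genes of shared libraries). Ptprc, the pan-leukocyte gene for CD45, had 271 and 276 CPM (counts scaled to a common library size) in MLL-ENL ∆YEATS libraries and 193 and 264 CPM in MLL-ENL libraries. The progenitor marker genes Cd34 and Flt3 were under 0.2 CPM in all 4. Of the progenitor and myeloid markers, 4 of 8 tested were called lower (Cebpa, Kit, Mpo and Elane) and 2 higher (Spi1 and Csf1r). Their summed levels were 2834 and 2874 CPM in MLL-ENL ∆YEATS libraries and 5227 and 4732 CPM in MLL-ENL libraries. Most of these sums came from Elane, with 1773 and 1817 CPM against 3728 and 3106 CPM. Among mature neutrophil markers Cxcr2 and Mmp8 were called higher and Ngp lower, with sums of 30.9 and 28.4 CPM against 68.1 and 57.4 CPM. Most of these sums came from Ngp, with 22.1 and 19.8 CPM against 59.0 and 49.1 CPM. The defining genes of other cell types were at or near 0: Cd3e, Cd3g, Cd8a, Pax5, Ms4a1 and the globin genes had no counts, and the summed B lymphoid, erythroid, megakaryocyte and stromal lists each stayed under 3 CPM in every library. The T lymphoid list summed to 0.886 and 0.803 CPM in MLL-ENL ∆YEATS libraries and 3.77 and 3.41 CPM in MLL-ENL libraries, nearly all of it from the kinase gene Lck. The part of this marker shift in the replication genes was not tested.

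Few of the replication genes passed the test. Of the 37 genes, 3 were called higher in MLL-ENL ∆YEATS cells, namely Rrm2, the cyclin gene Ccne2 and Wdr76, and 0 were called lower (edgeR's quasi-likelihood test with Benjamini-Hochberg adjustment over all 13245 genes tested, called at an adjusted p under 0.05). At an unadjusted p under 0.05 the same test gave 6 genes higher and 2 lower (21.6% of the 37 genes, against 33.3% of all tested genes). DESeq2 called 3 higher and 0 lower, against 4.37% of all genes called higher and 5.94% called lower in its fit. That fit took in all 21799 genes with counts, without the filter used for edgeR, so its shares are not on the same set of genes. In the edgeR fit the 3 called higher are 8.11% of the 37 genes, against 7.04% of all tested genes called higher, 9.84% called lower and 16.9% called in either direction. The share called higher thus lies near that of all genes. All 37 genes passed the filter on low counts.

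The median log2 fold change (MLL-ENL ∆YEATS over MLL-ENL) was 0.13 over the 37 genes, within a range of -0.41 to 0.93, against -0.01 over all tested genes. It was positive for 24 genes and negative for 13. The median size of the change, regardless of sign, was 0.17, against 0.29 over all genes. Summed over the 37 genes, the level was 5238 and 5239 CPM in MLL-ENL ∆YEATS libraries and 4965 and 5066 CPM in MLL-ENL libraries. In these bulk libraries a different share of cells in S phase and a different amount of RNA per cell cannot be told apart.

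The intervals show how narrow the differences were. The 95% interval of the log2 fold change lay within a 2-fold change either way for 35 of the 37 genes (94.6%), against 66.4% of all tested genes, and within a 1.5-fold change for 26 (70.3%), against 32.8%. The 2 genes whose interval reached past 2-fold were Rrm2 and E2f8. The 37 genes are also well expressed, with a median of 46.6 FPKM (a level scaled by transcript length and library size), against 11.9 FPKM over all tested genes, and the median SE of their log2 fold changes was 0.13, against 0.17. The interval included 0 for 29 of the 37 genes, which does not show that those levels were alike.

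**Figure D1:**
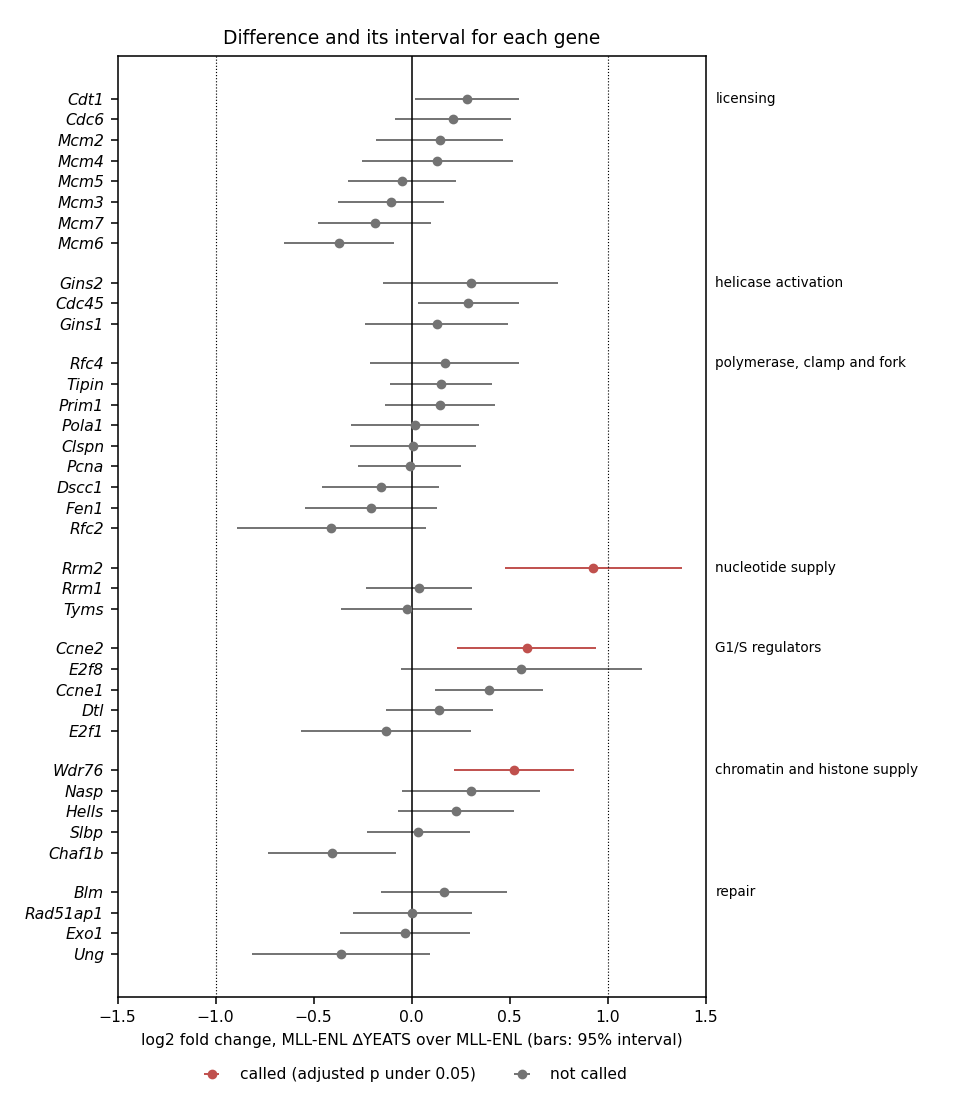
Log2 fold change of each of the 37 genes (horizontal axis, MLL-ENL ∆YEATS over MLL-ENL) with its 95% interval as a bar, ordered by role, with dotted lines at a 2-fold change. Rrm2, Ccne2 and Wdr76, in red, were called at an adjusted p under 0.05, and the 34 genes in grey were not.

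Genes whose libraries did not overlap between the groups were common in these data. For 15 of the 37 genes both MLL-ENL ∆YEATS libraries lay above both MLL-ENL libraries, for 8 both lay below, and for 14 they overlapped. Over all tested genes 32.1% were separated with MLL-ENL ∆YEATS higher and 32.2% with it lower, so the separated share of the 37 genes (62.2%) lies near that of all genes (64.3%). With 2 libraries a group, an exact permutation test of a single gene cannot reach p = 0.05.

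None of the 8 licensing genes was called in either direction, against 16.9% of all tested genes. Sets this small, here and for each role below, hold too few genes to set apart from that share. Their log2 fold changes ranged from -0.37 (Mcm6) to 0.28 (Cdt1), with a median of 0.04, 4 positive and 4 negative. Mcm6, a helicase subunit, had 418 and 414 CPM in MLL-ENL ∆YEATS libraries, against 570 and 507 CPM in MLL-ENL libraries. Both MLL-ENL ∆YEATS libraries were below both MLL-ENL libraries, with a log2 fold change of -0.37 (SE 0.11, 95% interval -0.65 to -0.09, edgeR adjusted p = 0.0812), which missed the threshold. Cdt1, which brings the helicase to origins and is destroyed once S phase starts, had 89.8 and 91.8 CPM in MLL-ENL ∆YEATS libraries, against 72.7 and 76.5 CPM in MLL-ENL libraries. Its groups did not overlap either, and its log2 fold change of 0.28 (95% interval 0.02 to 0.55, edgeR adjusted p = 0.131) missed the threshold in the opposite direction to Mcm6.

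Cdc6, the ATPase that works with Cdt1 at origins, had 79.6 and 79.0 CPM in MLL-ENL ∆YEATS libraries and 64.1 and 73.0 CPM in MLL-ENL libraries, for a log2 fold change of 0.21 (95% interval -0.09 to 0.51). The other helicase subunits fell on both sides of 0. Mcm2 had 305 and 297 CPM against 247 and 298 CPM, and Mcm4 had 257 and 257 CPM against 203 and 266 CPM. In both, MLL-ENL replicate 1 was low and MLL-ENL replicate 2 was about level with or above the MLL-ENL ∆YEATS libraries. Mcm3 had 324 and 321 CPM against 330 and 363 CPM, and Mcm7 had 299.6 and 290.4 CPM against 359 and 314 CPM, with both MLL-ENL ∆YEATS libraries below both MLL-ENL libraries in each. Mcm5 had 340.4 and 335 CPM against 368 and 331 CPM, with overlapping groups.

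Because the helicase holds 1 copy of each of its subunits, the make-up of the 6 transcripts was set out per length, from the FPKM in each library. Their summed level was 785 and 764 FPKM in MLL-ENL ∆YEATS libraries and 787 and 834 FPKM in MLL-ENL libraries. Mcm6 made up 21.8% and 22.04% of that sum in MLL-ENL ∆YEATS libraries, against 26.8% and 25.01% in MLL-ENL libraries. The shares of Mcm2 were 13.1% and 12.99% against 9.85% and 11.96%, and those of Mcm4 were 10.5% and 10.7% against 7.56% and 9.82%. The share of Mcm6 was thus lower, and those of Mcm2 and Mcm4 higher, in both MLL-ENL ∆YEATS libraries than in both MLL-ENL libraries. The shares of Mcm2 and Mcm4 were lowest in MLL-ENL replicate 1. With that library left out, the log2 fold change from counts was 0.01 for Mcm2 and -0.05 for Mcm4. Mcm3, Mcm5 and Mcm7 had shares of 15.3% to 22.7% over the 4 libraries. The highest subunit exceeded the lowest by 2.08- and 2.06-fold in MLL-ENL ∆YEATS libraries and by 3.55- and 2.55-fold in MLL-ENL libraries.

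**Figure D2:**
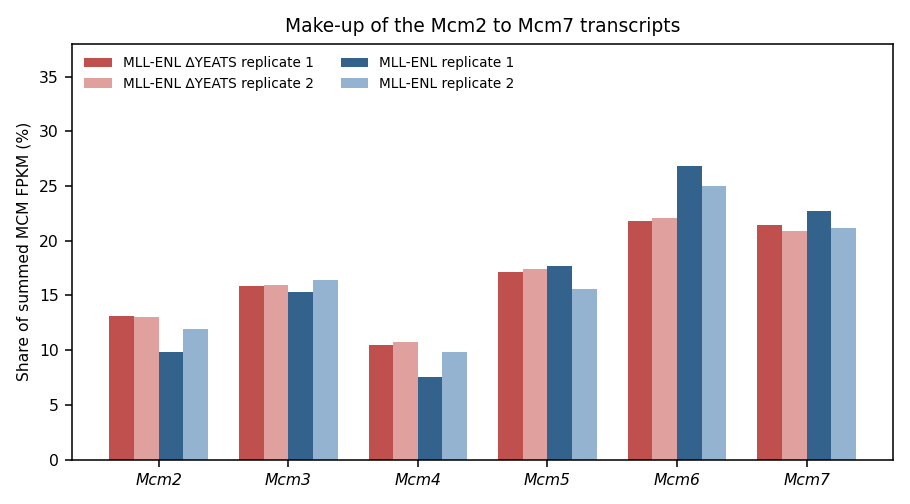
Share of each helicase subunit gene in the summed FPKM of Mcm2 to Mcm7 (vertical axis, percent), with a bar for each of the 4 libraries. Mcm6 held 21.8% and 22.04% in the MLL-ENL ∆YEATS libraries, against 26.8% and 25.01% in the MLL-ENL libraries. Mcm2 and Mcm4 held more in the MLL-ENL ∆YEATS libraries and least in MLL-ENL replicate 1.

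The 3 genes of helicase activation all had positive log2 fold changes (0.13 to 0.30), and none was called, against 16.9% of all tested genes. Cdc45, which joins the helicase when an origin fires, had 103 and 105 CPM in MLL-ENL ∆YEATS libraries, against 84.7 and 84.8 CPM in MLL-ENL libraries. The libraries of each pair lay close together and the groups did not overlap, with a log2 fold change of 0.29 (SE 0.10, 95% interval 0.03 to 0.55, edgeR adjusted p = 0.118). Gins2, a GINS subunit, had 75.5 and 78.0 CPM against 52.1 and 72.4 CPM. Gins1, another subunit, had 19.4 and 19.7 CPM against 19.8 and 16.0 CPM, with overlapping groups. Exons of Gins2 overlap those of Gse1 on the opposite strand, and Gse1 had 2740 and 2648 counts in MLL-ENL ∆YEATS libraries against 1367 and 2616 in MLL-ENL libraries, low in the same library as Gins2. No source used here gives the strand setting of the counting, and the part of Gse1 in the Gins2 value was not tested.

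The 9 genes of the polymerase, the clamp and the fork showed no call in either direction, against 16.9% of all tested genes called. Their median log2 fold change was 0.01, within a range of -0.41 to 0.17. Pcna, the sliding clamp and a classical marker of proliferation, had 248 and 252 CPM in MLL-ENL ∆YEATS libraries and 242 and 261 CPM in MLL-ENL libraries. The MLL-ENL ∆YEATS libraries lay between the MLL-ENL libraries, and the log2 fold change of -0.01 had an interval of -0.27 to 0.25. The pseudogene Pcna-ps2 took 19 to 36 counts per library. Pola1, the catalytic subunit of polymerase alpha, had 90.3 and 87.3 CPM against 79.9 and 95.6 CPM. Prim1, the primase subunit that makes the RNA primer, had 50.3 and 50.3 CPM against 43.4 and 47.6 CPM.

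Rfc2, a subunit of the clamp loader, had the lowest fold change of the 37 genes and one of the least certain. It had 75.9 and 78.8 CPM in MLL-ENL ∆YEATS libraries, against 122 and 84.0 CPM in MLL-ENL libraries. Most of the difference came with MLL-ENL replicate 1, and the log2 fold change of -0.41 had an interval of -0.89 to 0.07 (edgeR adjusted p = 0.207). Lat2, whose exons overlap those of Rfc2 on the opposite strand, had 398 and 397 counts against 106 and 76 counts, the opposite direction to Rfc2. Rfc4, another loader subunit, had 28.5 and 28.7 CPM against 28.6 and 22.4 CPM. The ratio of Rfc2 to Rfc4, in FPKM, was 2.20 and 2.16 in MLL-ENL ∆YEATS libraries and 3.81 and 3.15 in MLL-ENL libraries. Fen1, the flap nuclease of Okazaki fragment maturation, had 149 and 156 CPM against 193 and 158 CPM, and Dscc1, part of an alternative clamp loader, had 12.3 and 12.8 CPM against 14.0 and 14.0 CPM. The fork protection gene Tipin had 93.7 and 93.9 CPM against 86.0 and 83.2 CPM, and the checkpoint mediator Clspn had 113 and 110 CPM against 121 and 101 CPM. Fen1 and Dscc1 were lower and Tipin was higher in both MLL-ENL ∆YEATS libraries, without a call, and the groups overlapped for Clspn.

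Of the 3 nucleotide supply genes Rrm2 was called higher, with the largest fold change of the 37 genes, and Rrm1 and Tyms were not called. Rrm2 (chromosome 12, 24708241 to 24714146, plus strand, GRCm38) had 404 and 405 CPM in MLL-ENL ∆YEATS libraries, against 177 and 248 CPM in MLL-ENL libraries. Both MLL-ENL ∆YEATS libraries were above both MLL-ENL libraries, with means of 404 ± 1.14 CPM and 213 ± 50.5 CPM (SD, n = 2 each). Rrm2 rose by a log2 fold change of 0.93 (SE 0.18, 95% interval 0.48 to 1.38, 1.90-fold, edgeR adjusted p = 0.0243). With MLL-ENL replicate 1 left out the log2 fold change was 0.70, and with replicate 2 left out it was 1.19, called in both. The call ended in the 3 fits of log2 FPKM with limma, at an adjusted p of 0.0595 with a pseudocount of 1 and 0.0718 with a pseudocount of 0.1, and 0.154 with a pseudocount of 1 and no filter, with log2 differences of 0.97 to 0.98.

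Rrm1, the large subunit that forms ribonucleotide reductase with Rrm2, had 437 and 436 CPM in MLL-ENL ∆YEATS libraries and 404 and 446 CPM in MLL-ENL libraries. Its log2 fold change of 0.04 had an interval of -0.23 to 0.31, whose upper bound lies below the lower bound of Rrm2. In FPKM the ratio of Rrm2 to Rrm1 was 1.63 and 1.63 in MLL-ENL ∆YEATS libraries, against 0.631 and 0.996 in MLL-ENL libraries. The ratio thus lay above 1 in both MLL-ENL ∆YEATS libraries and below 1 in both MLL-ENL libraries. The effective length that RSEM gave Rrm1 differed by up to 1.27-fold between libraries, which enters its FPKM and not its CPM. Tyms, which makes thymidylate, had 70.8 and 71.7 CPM against 79.4 and 65.7 CPM, with overlapping groups.

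Of the 5 G1/S regulators 4 had positive log2 fold changes, with a median of 0.40, and 1 was called. Ccne2 (chromosome 4, 11191351 to 11204779), a cyclin E gene whose product drives the CDK2 kinase at the start of S phase, had 77.9 and 79.0 CPM in MLL-ENL ∆YEATS libraries, against 46.6 and 57.9 CPM in MLL-ENL libraries. The groups did not overlap, with means of 78.5 ± 0.835 CPM and 52.2 ± 7.96 CPM (SD, n = 2 each). Ccne2 rose by a log2 fold change of 0.59 (SE 0.14, 95% interval 0.23 to 0.94, edgeR adjusted p = 0.0457). The call ended under library-total scaling (adjusted p = 0.0596), without the filter (0.0557), with a stricter filter (0.0547), in the limma fits (0.0670 to 0.147), and without MLL-ENL ∆YEATS replicate 1 (0.343) or replicate 2 (0.375). Its log2 fold change stayed between 0.44 and 0.75 in those fits and all others run. Exons of Ccne2 overlap those of Ints8 on the opposite strand, and Ints8 had 2085 and 2000 counts against 1383 and 1765 counts, higher in the same libraries.

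Ccne1, the other cyclin E gene, had 42.5 and 43.8 CPM in MLL-ENL ∆YEATS libraries, against 33.6 and 31.9 CPM in MLL-ENL libraries. The groups did not overlap, and the log2 fold change of 0.40 (SE 0.11, 95% interval 0.12 to 0.67, edgeR adjusted p = 0.0667) missed the threshold. The ratio of Ccne2 to Ccne1, in FPKM, was 1.45 and 1.44 in MLL-ENL ∆YEATS libraries and 1.09 and 1.36 in MLL-ENL libraries.

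E2f8, an atypical E2F that represses E2F targets late in S phase, was the least precisely measured of the 37 genes. It had 161 and 157 CPM in MLL-ENL ∆YEATS libraries, against 80.9 and 135 CPM in MLL-ENL libraries. The MLL-ENL libraries differed by a log2 ratio of -0.73 (replicate 1 over replicate 2), more than the log2 fold change between the groups of 0.56 (SE 0.24, 95% interval -0.05 to 1.17, edgeR adjusted p = 0.180). With MLL-ENL replicate 1 left out the log2 fold change of E2f8 was 0.24, and with MLL-ENL replicate 2 left out it was 0.97. E2f1, an activator of these genes, had 67.8 and 69.2 CPM against 86.8 and 63.4 CPM, with the MLL-ENL ∆YEATS libraries between the MLL-ENL libraries. Dtl, which directs Cdt1 to destruction in S phase, had 78.6 and 79.4 CPM against 68.9 and 74.4 CPM, higher in both MLL-ENL ∆YEATS libraries, with a log2 fold change of 0.14 (95% interval -0.13 to 0.41).

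Of the 5 genes of chromatin assembly and histone supply 4 had positive log2 fold changes and 1 negative, with 1 call. Wdr76 (chromosome 2, 121506723 to 121544860), which encodes a WD-repeat protein linked to the DNA damage response in human cells, had 47.1 and 47.1 CPM in MLL-ENL ∆YEATS libraries, against 30.5 and 35.0 CPM in MLL-ENL libraries. The groups did not overlap, with means of 47.1 ± 0.028 CPM and 32.8 ± 3.17 CPM (SD, n = 2 each). Wdr76 rose by a log2 fold change of 0.52 (SE 0.12, 95% interval 0.22 to 0.83, edgeR adjusted p = 0.0425). The call ended under library-total scaling (adjusted p = 0.0529), without the filter (0.0580), with a stricter filter (0.0523), in the limma fits (0.0945 to 0.171), and without MLL-ENL ∆YEATS replicate 1 (0.454) or replicate 2 (0.455). The log2 fold change stayed between 0.43 and 0.63 in every fit run.

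Chaf1b, a subunit of the chaperone that sets histones on new DNA, was the gene closest to a call on the lower side after Mcm6. It had 47.6 and 48.3 CPM in MLL-ENL ∆YEATS libraries, against 69.1 and 58.1 CPM in MLL-ENL libraries, without overlap. Its log2 fold change was -0.41 (SE 0.13, 95% interval -0.73 to -0.08, edgeR adjusted p = 0.0933). The histone chaperone gene Nasp had 167 and 172 CPM against 153 and 123 CPM, and the chromatin remodeller gene Hells had 137 and 140 CPM against 110 and 126 CPM. Slbp, which binds the stem-loop of replication-dependent histone mRNAs, had 125 and 131 CPM against 123 and 127 CPM. Nasp and Hells were higher in both MLL-ENL ∆YEATS libraries without a call, and the groups overlapped for Slbp.

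The 4 repair genes had a median log2 fold change of -0.02 and no call, against 16.9% of all tested genes called. Ung, the uracil glycosylase, had 33.6 and 35.7 CPM in MLL-ENL ∆YEATS libraries, against 51.6 and 37.2 CPM in MLL-ENL libraries, with a log2 fold change of -0.36 (95% interval -0.81 to 0.10). MLL-ENL replicate 1 stood apart from the other libraries for Ung. The nuclease gene Exo1 had 44.8 and 44.6 CPM against 41.6 and 49.96 CPM, and the recombination gene Rad51ap1 had 43.2 and 41.8 CPM against 45.2 and 39.6 CPM. The MLL-ENL ∆YEATS libraries lay between the MLL-ENL libraries for both. Blm, the helicase that is lost in Bloom syndrome in humans, had 81.7 and 81.5 CPM against 66.6 and 79.0 CPM, higher in both MLL-ENL ∆YEATS libraries.

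**Figure D3:**
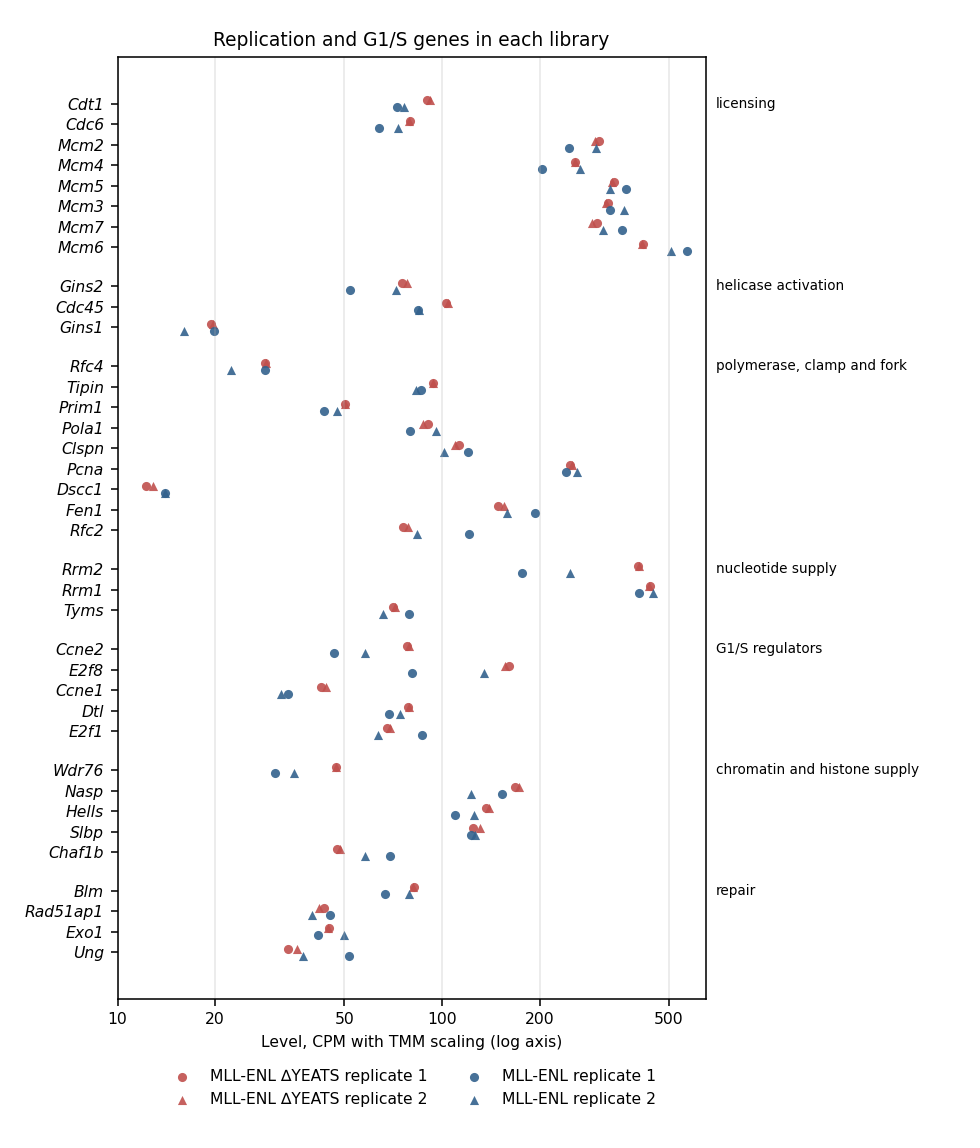
Level of each of the 37 genes in each library (horizontal log axis, CPM with TMM scaling), with 1 symbol per library and genes ordered by role. Rrm2 lies at 404 and 405 CPM in the MLL-ENL ∆YEATS libraries, against 177 and 248 CPM in the MLL-ENL libraries, while 14 genes overlap between the groups.

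Per length, levels spanned a wide range that was similar in both kinds of cells. By the mean over all 4 libraries Tipin came first, 273.5 FPKM in MLL-ENL ∆YEATS libraries and 239 FPKM in MLL-ENL libraries, but its effective length in the RSEM estimates was only 349 bases. Pcna came next by that mean, at 209 FPKM in MLL-ENL ∆YEATS libraries and 203 FPKM in MLL-ENL libraries, and then Mcm6, at 169.9 and 209.8 FPKM. The order differed within the groups, where Rrm2 stood above Pcna in MLL-ENL ∆YEATS libraries and Mcm6 stood above Pcna in MLL-ENL libraries. The lowest were Wdr76, at 14.7 FPKM in MLL-ENL ∆YEATS libraries and 9.78 FPKM in MLL-ENL libraries, and Dscc1, at 11.4 and 12.04 FPKM. Even Dscc1 stood at the 49.6th percentile of the tested genes, and the median of the 37 genes stood at the 81.5th. Rrm2 ranked above Mcm6 in the MLL-ENL ∆YEATS libraries, at 219.6 FPKM, and below it in the MLL-ENL libraries, at 114 FPKM.

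Most of the spread behind these comparisons lay in the MLL-ENL pair. Between the MLL-ENL ∆YEATS libraries the log2 ratio (replicate 1 over 2) ranged from -0.09 to 0.05 over the 37 genes, with a median size of 0.025, against -0.73 (E2f8) to 0.53 (Rfc2) and a median size of 0.25 between the MLL-ENL libraries. MLL-ENL replicate 1 was below replicate 2 for 21 genes and above it for 16. Longer transcripts among the 37 had lower ratios of MLL-ENL replicate 1 to replicate 2 (Spearman's rho = -0.51, n = 37 genes of the same libraries, a description with no test), as they did among all genes. The fold change between the groups followed length less closely (rho = 0.15). In the fit with the length trend removed, an alternative chosen with earlier results of these data known, 5 of the 37 genes were called higher (Cdc45, Rrm2, Ccne1, Ccne2 and Wdr76) and 2 lower (Mcm6 and Chaf1b). These are 13.5% and 5.41% of the 37 genes, against 11.1% and 13.7% of all genes in that fit.

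**Figure D4:**
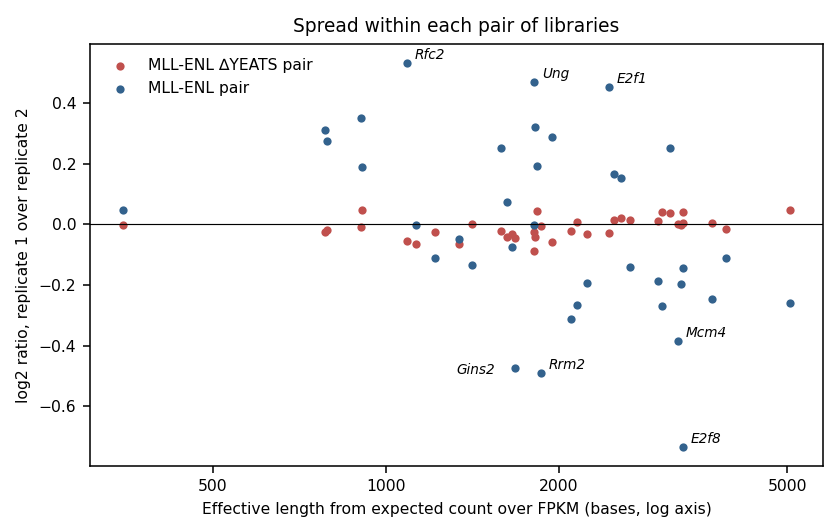
Log2 ratio of replicate 1 to replicate 2 within each pair (vertical axis) against the effective length of the transcript (horizontal log axis, bases), with a red point per gene for the MLL-ENL ∆YEATS pair and a blue point for the MLL-ENL pair. Red points stay between -0.09 and 0.05, and blue points reach 0.53 for Rfc2 and -0.73 for E2f8.

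The number of calls rose when either of the MLL-ENL libraries was left out, among the 37 genes and among all genes. Without MLL-ENL replicate 1, 15 of the 37 genes were called higher and 7 lower, against 26.9% and 27.7% of all genes tested in that fit. Without MLL-ENL replicate 2, 19 were called higher and 10 lower, against 33.6% and 32.9% of all genes. In these fits the single MLL-ENL library is assumed to vary as little as the close MLL-ENL ∆YEATS pair. Pola1, Clspn and Tyms were called in opposite directions in these 2 fits. With MLL-ENL ∆YEATS replicate 1 or 2 left out, the spread came only from the wider MLL-ENL pair. The median log2 fold change of the 37 genes was then 0.119 or 0.109. That of Rrm2 was 0.93 or 0.92, and that of Ccne2 was 0.59 or 0.57.

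None of the genes with an upstream E2F motif was called. The 7 genes that held it had a median log2 fold change of 0.02, within a range of -0.37 to 0.23. Their groups were separated in both directions, with Cdc6, Dtl and Hells higher and Mcm6 and Mcm7 lower in both MLL-ENL ∆YEATS libraries. Over all tested genes 16.9% were called and 64.3% were separated, and 7 genes are too few to set apart from those shares. The 22 genes without it had a median of 0.09, with 2 called higher (Rrm2 and Wdr76). The 8 genes not in the promoter table had a median of 0.13, with 1 called higher (Ccne2). These are counts beside each other, and the difference between them was not tested.

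Other genes of the same processes, in 5 fixed lists of 112 genes in all, gave 6 calls higher and 3 lower (8.04% called, against 16.9% of all genes), with a median log2 fold change of 0.05. Of 21 other origin and licensing genes 2 were called higher and 0 lower, with a median of 0.19. Orc1, the largest subunit of the origin recognition complex, had 17.6 and 17.7 CPM in MLL-ENL ∆YEATS libraries, against 11.1 and 12.9 CPM in MLL-ENL libraries (log2 fold change 0.56, SE 0.13, edgeR adjusted p = 0.0445). Donson, a fork protein that helps the helicase to assemble, had 26.1 and 25.3 CPM against 16.0 and 18.95 CPM (0.55, SE 0.13, edgeR adjusted p = 0.0456). Both rose, but the call of Orc1 ended in 9 and that of Donson in 10 of the 15 alternatives, among them library-total scaling, no filter, the stricter filter, voom weights, DESeq2 (adjusted p = 0.0746 for Orc1 and 0.0519 for Donson) and the fits without either of the MLL-ENL ∆YEATS libraries (0.328 to 0.411 over both genes).

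Of 26 other polymerase and fork genes 0 were called higher and 1 lower, with a median of 0.02. The one, Rnaseh2b, a subunit of the enzyme that removes ribonucleotides from DNA, had 31.98 and 30.4 CPM in MLL-ENL ∆YEATS libraries, against 49.6 and 46.5 CPM in MLL-ENL libraries (log2 fold change -0.62, SE 0.11, edgeR adjusted p = 0.0199). Of 20 other nucleotide supply genes none was called, with a median of -0.0019 and 6 at an unadjusted p under 0.05 (4 higher and 2 lower). Rrm2b, the reductase subunit used outside S phase, had 26.6 and 27.3 CPM in MLL-ENL ∆YEATS libraries, against 18.1 and 20.9 CPM in MLL-ENL libraries (log2 fold change 0.47, edgeR adjusted p = 0.0638). The 23 other checkpoint and fork repair genes had a median log2 fold change of 0.01, with 0 called higher. The call of Rnaseh2b ended in 5 of the 15 alternatives, among them the fits without either of the MLL-ENL ∆YEATS libraries.

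Of 22 other regulators around E2F, RB and CDK2, 4 were called higher and 1 lower (22.7%, against 16.9% of all genes), with a median log2 fold change of 0.36. Cdkn1a, the p21 inhibitor of cyclin-dependent kinases, had 77.7 and 78.5 CPM in MLL-ENL ∆YEATS libraries, against 41.9 and 44.8 CPM in MLL-ENL libraries (log2 fold change 0.85, SE 0.11, edgeR adjusted p = 0.00672). E2f7, the atypical repressor closest to E2f8, had 49.2 and 47.0 CPM against 23.5 and 32.1 CPM (0.79, SE 0.17, edgeR adjusted p = 0.0360). The other 2 called higher were E2f2, an activator E2F, and Cdkn1b, the p27 inhibitor, with log2 fold changes of 0.57 and 0.55 (edgeR adjusted p = 0.0252 and 0.0471).

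Tfdp2, which encodes a DP partner of E2F proteins, fell to 13.2 and 13.2 CPM in MLL-ENL ∆YEATS libraries, against 33.7 and 43.1 CPM in MLL-ENL libraries (log2 fold change -1.54, SE 0.16, edgeR adjusted p = 0.00322). This was the largest change in either direction among the 37 genes and the other fixed lists. Tfdp1, the other DP gene of the list, had 347 and 347 CPM against 223 and 327 CPM, without a call (log2 fold change 0.34, edgeR adjusted p = 0.290). The call of Cdkn1a ended in 3 and that of E2f7 in 5 of the 15 alternatives, among them the fits without either of the MLL-ENL ∆YEATS libraries. Tfdp2 lost its call in 1 alternative, but was called in each fit that left out a library. Without either of the MLL-ENL ∆YEATS libraries 0 of the 22 genes were called higher.

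Mitosis and G2/M genes were set beside the S-phase genes, since both sets mark cycling cells. Of 34 such genes 1 was called higher and 0 lower, with a median log2 fold change of 0.20 and 10 at an unadjusted p under 0.05, all higher. The call is 2.94% of the list, against 7.04% of all genes called higher. The 10 are 29.4% of the list, all on the higher side. Over all genes 33.3% reached that unadjusted p in either direction, and 2040 of the 13245 genes did so on the higher side. Their summed level was 5082 and 5094 CPM in MLL-ENL ∆YEATS libraries and 4318 and 4930 CPM in MLL-ENL libraries, lowest in MLL-ENL replicate 1. The gene called, Bub1, a kinase of the spindle checkpoint, had 125 and 129 CPM in MLL-ENL ∆YEATS libraries, against 75.3 and 90.6 CPM in MLL-ENL libraries (log2 fold change 0.62, SE 0.13, edgeR adjusted p = 0.0328). Its call ended in 5 of the 15 alternatives, among them the fits without either of the MLL-ENL ∆YEATS libraries.

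**Figure D5:**
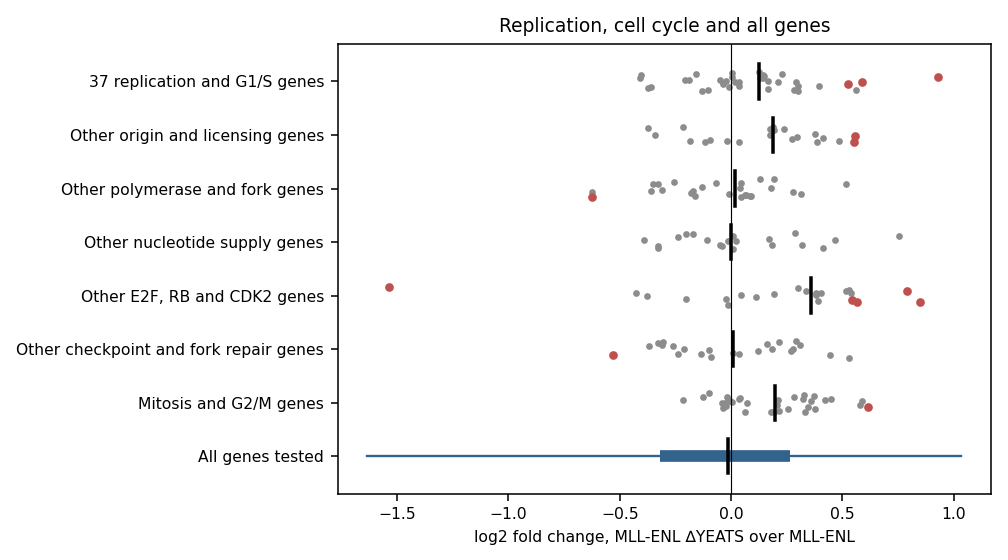
Log2 fold change (horizontal axis, MLL-ENL ∆YEATS over MLL-ENL) of each gene of the 37 and of the other fixed lists, with called genes in red, the others in grey and the median of each list as a black line. The blue bar for all tested genes runs from the 25th to the 75th percentile (-0.32 to 0.27) and its thin line from the 5th to the 95th (-1.63 to 1.04), and Tfdp2 at -1.54 is the lowest point of the lists.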

How the data were processed

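The authors deposited expected counts per gene (RSEM estimates, whole numbers as deposited) and FPKM, which were scaled by length and depth by the authors. Per the submitters' processing notes, reads went through STAR 2.7.8a and RSEM 1.3.3 among the tools named (also FastQC 0.11.8 and cutadapt 2.3), with build GRCm38. No source used here gives the strand setting. Groups came from the sample titles. The 37 genes and all lists were chosen with earlier results of these data known. Genes were filtered with filterByExpr (13245 kept), scaled by TMM and tested with edgeR 4.0.16 (quasi-likelihood, R 4.3.3) with Benjamini-Hochberg adjustment, and 95% intervals used the test's degrees of freedom (2 residual, 3.41 prior). The script was tested on simulated data. CPM values carry TMM scaling, and intervals cover only the spread between these libraries. A chi-square comparison of counts gave 2.06 per degree of freedom in the MLL-ENL ∆YEATS pair and 97.9 in the MLL-ENL pair. Both lay above counting noise, the first much nearer to it. Each library counted as 1 replicate in the test, although the series' text calls the replicates technical. Fold changes use counts, and comparisons of levels between genes use FPKM.

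Named genes followed a rule: all 37 genes, those called with every library's value, and of each other list up to 2 called genes a direction, by size of change, whose higher group averaged 1 CPM or more, or else the 2 of smallest p. E2f2, Cdkn1b and Tfdp1 were named after their values were seen. Exons of 9 of the 37 genes (Mcm7, Cdc45, Gins2, Rfc2, Rfc4, Fen1, E2f8, Ccne2 and Slbp) overlap another gene with counts in GENCODE M21, and their values are uncertain by the reads that could be shared. Same-numbered libraries did not deviate together (correlation -0.07), so numbers were not used as pairs. Alternatives were other scalings and filters, each library left out, a replicate block, limma 3.58.1 on log2 FPKM (pseudocounts 1 and 0.1), DESeq2 1.42.0, voom quality weights and a length-trend correction (lowess, span 0.3). Protein sequences were not analysed here. Some genes that the rule takes are not reported here.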

Additional observations from a re-analysis of the deposited data

How the results depend on the processing

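The 37 genes gave 3 calls higher and 0 lower. RLE scaling and DESeq2 gave 3 and 0, and voom quality weights gave 4 and 0, E2f8 being the fourth. Library-total scaling, no filter and the 5 CPM filter each gave 1 higher (Rrm2), limma on log2 FPKM gave 0 (pseudocounts 1 and 0.1) or 1 (Ccne1, no filter), and removal of the length trend gave 5 higher and 2 lower, against 11.1% and 13.7% of all genes in that fit. Leaving out a library gave 1 to 19 higher and 0 to 10 lower. In the replicate block, which rests on numbers that do not pair the libraries, 4 were called higher and 0 lower. The median log2 fold change of 0.13 was 0.178 with library totals, where the median of all genes was 0.04, 0.075 with the length trend removed and 0.082 to 0.119 without a library. The cause of these changes was not tested. The looser E2F spelling TTTNNCGC also stood upstream of 24.1% of the genes that have a promoter in the table. It stood upstream of 4.94% of all genes in the promoter table and 8.45% of the tested ones. For the main spellings those shares were lower, at 2.16% and 4.03%.

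Signs turned only for genes whose log2 fold change was at most 0.13 in size and that were not called with all 4 libraries. With library totals Mcm5 was at 0.0056, Pcna at 0.041, Tyms at 0.032 and Exo1 at 0.014. With limma and pseudocounts of 1 (with or without the filter) and 0.1, Pcna was at 0.047 in all, Clspn at -0.057 and -0.059, Rrm1 at -0.061 and -0.062, Tyms at 0.160 and 0.161, and Exo1 at 0.060 and 0.063. With the length trend removed Pola1 was at -0.093, Pcna at 0.038, Clspn at -0.066, Rrm1 at -0.028 and Tyms at 0.070. With the 5 CPM filter Clspn was at -0.0095 and Rad51ap1 at -0.011, and with no filter Rad51ap1 was at -0.00078. Without a library the ranges were Mcm4 -0.050 to 0.337, Mcm5 -0.123 to 0.028, Gins1 -0.020 to 0.290, Pola1 -0.108 to 0.153, Pcna -0.066 to 0.049, Clspn -0.115 to 0.136, Rrm1 -0.034 to 0.112, Tyms -0.155 to 0.117, E2f1 -0.341 to 0.111, Slbp -0.0021 to 0.060, Exo1 -0.162 to 0.105 and Rad51ap1 -0.087 to 0.099.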
